A study of Mus musculus with 13 samples.

Results

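Of 4179 stitched domains of H3K27ac in differentiating C2C12 cells at 48 h, 391 held no peak that was also found in the Myod1 knockout. Acetylation of lysine 27 of histone H3 marks active promoters and enhancers, and runs of closely spaced peaks are the units from which super-enhancers are drawn. Peaks of the wild-type library at 48 h were joined when no more than 12500 bases apart, which gave 21096 domains, and those of 5 or more peaks were kept. A domain was chosen when none of its peaks overlapped a knockout peak by 1 base, and is called knockout-free here. The 391 knockout-free domains made up 9.36% of the 4179 and held 2517 wild-type peaks. The other 3788 domains held 36001 peaks, of which 46.7% overlapped a knockout peak. Absence from the knockout list chose the domains and is not a result. The knockout list was the shortest of the 12, with 55585 peaks over 18.3 Mb, against 71281 peaks over 45.4 Mb in the wild-type list at 48 h. The part of this in the absence of knockout peaks was not tested. With the 55585 strongest peaks of every list, 158 of the 391 met a knockout-free domain. That setting keeps the whole knockout list and shortens the others, so it cannot decide this. The other 10 libraries took no part in the choice.

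C2C12 is a mouse myoblast line that fuses into myotubes when serum is withdrawn. Unedited (WT) cells were profiled 24 h before the change to differentiation medium, at the change, and 6, 12, 24, 48 and 72 h after it. The 5 edited lines, made with CRISPR/Cas9 and collected at 48 h, were Myod1_KO, which is labelled as lacking MyoD, and H1_KO, H3_KO, H23_KO and H34_KO. These 4 lack regions that the submitters name hotspots: H1, H3, H2 with H3, and H4 with H3. The double deletions were made by removing H3 from an H2 or an H4 line. Every condition had 1 library and so no test between conditions was possible, and the labels do not say how many clones a line represents. The unedited library at 48 h served as the control, since the CRISPR control at that time was not analysed here. Loss of MyoD cannot be checked from peaks of a histone mark. Each share below has a 95% Wilson interval that covers counting error only, since peaks of a domain share a library and a neighbourhood. The same holds for the intervals of differences, so they are no test between libraries or between groups of domains.

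MyoD is a basic helix-loop-helix factor that binds E-box motifs with E-protein partners. It recruits histone acetyltransferases such as p300 to enhancers of muscle genes and can turn fibroblasts into muscle cells. It is already present in proliferating myoblasts, where inhibitors such as the Id proteins limit its activity, and its targets include Myog, the regulator of terminal differentiation. Acetylation missing without MyoD may therefore lie in regions active before differentiation as well as in regions activated by it. No annotation of the build used here was given, so domains are named by position and not by gene.

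The knockout-free domains were small. Their median span was 13.9 kb (quartiles 8.66 and 20.0 kb, highest 57.0 kb), against 20.0 kb in the other domains (12.4 and 31.1 kb, highest 158.8 kb). They held a median of 6 peaks and at most 28, against 7 and at most 64. Domains of 5 peaks made up 47.1% of them and 22.8% of the others, and domains of 10 or more peaks 8.18% and 32.9%. At the same peak number the spans were close: domains of 5 peaks had a median of 10.7 kb when knockout-free and 11.2 kb otherwise, and domains of 10 or more peaks 31.5 and 37.1 kb. Peaks were spaced alike too, with a median gap per domain of 2.16 kb against 2.03 kb. Peak number itself bears on the rule, because a domain with more peaks has more chances to meet a knockout peak. The share of domains that were knockout-free was 17.5% of the 1049 with 5 peaks, 11.1% of the 1221 with 6 or 7, 6.19% of the 630 with 8 or 9 and 2.50% of the 1279 with 10 or more.

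**Figure D1:**
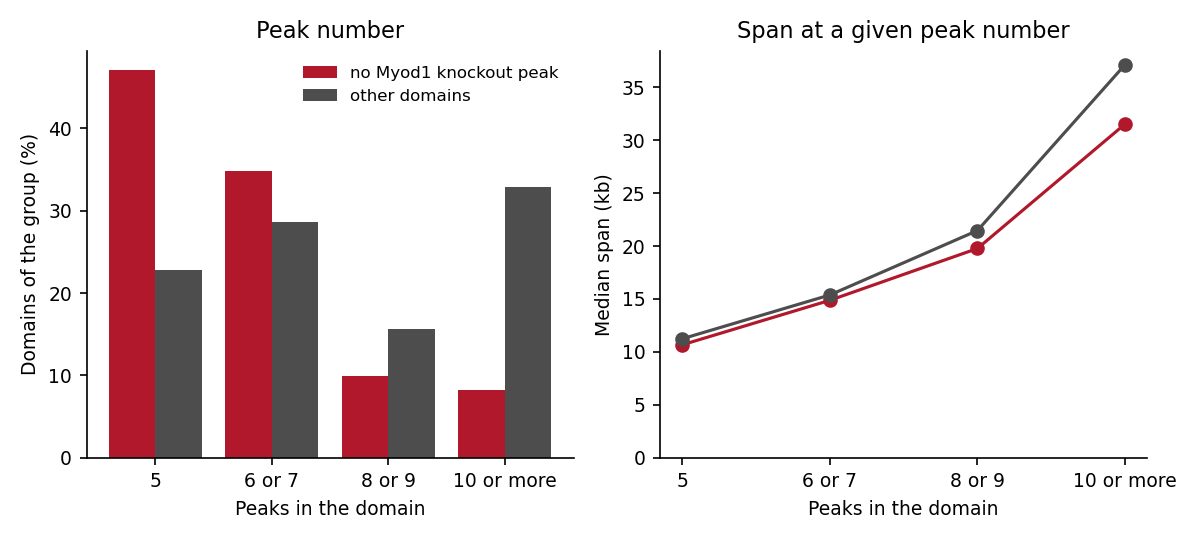
Left, percentage of the 391 knockout-free (red) and 3788 other (grey) domains by number of wild-type peaks; right, median span in kb at each peak number. Knockout-free domains gather at 5 peaks (47.1%), while at a given peak number the spans of both groups lie near each other.

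Their peaks were narrower and ranked lower within the wild-type list. Median peak width was 356 bp against 443 bp, and the median −log10 p was 10.6 against 12.7, both as the authors' peak caller gave them. The strongest peak of a knockout-free domain had a median −log10 p of 22.9, against 49.3 in the others. The highest in any knockout-free domain was 150.6. Shares by class of strength are given after those of the hotspot lines, and the part of strength in the other comparisons was not tested.

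The knockout-free domain with the most peaks lay on chromosome 16 at 45330686 to 45384884 (mm9, as are all positions) and spanned 54.2 kb. Before differentiation 7 of its 28 peaks were present 24 h ahead of the change of medium and 13 at the change itself. Afterwards 15 were present after 6 h, 11 after 12 h, 16 after 24 h and 17 after 72 h. The H1 line kept all 28, H34 kept 19, H3 kept 5 and H23 kept 1. It was thus acetylated before differentiation as well as after it, and the H3 and H23 lines stood far below H1 and H34. The nearest knockout peak lay 171.0 kb away, further than the domain is long.

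The domain of 17 peaks on chromosome 3, at 101297989 to 101341392, started from a lower level. None of its peaks was found at -24 or 0 h. The number was 1 at 6 h, 2 by 12 h, 3 by 24 h and 8 by 72 h. The H1 line kept all 17, H23 kept 5, H34 kept 1 and H3 kept none. In the H1 line peaks covered 74.4% of its 43.4 kb, against 17.4% in the wild-type library itself. The whole H1 list covered 70.6 Mb against 45.4 Mb and reached a lower −log10 p. The part of this in the covered share was not tested. In this domain all 3 lines without H3 held few peaks, H34 among them.

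**Figure D2:**
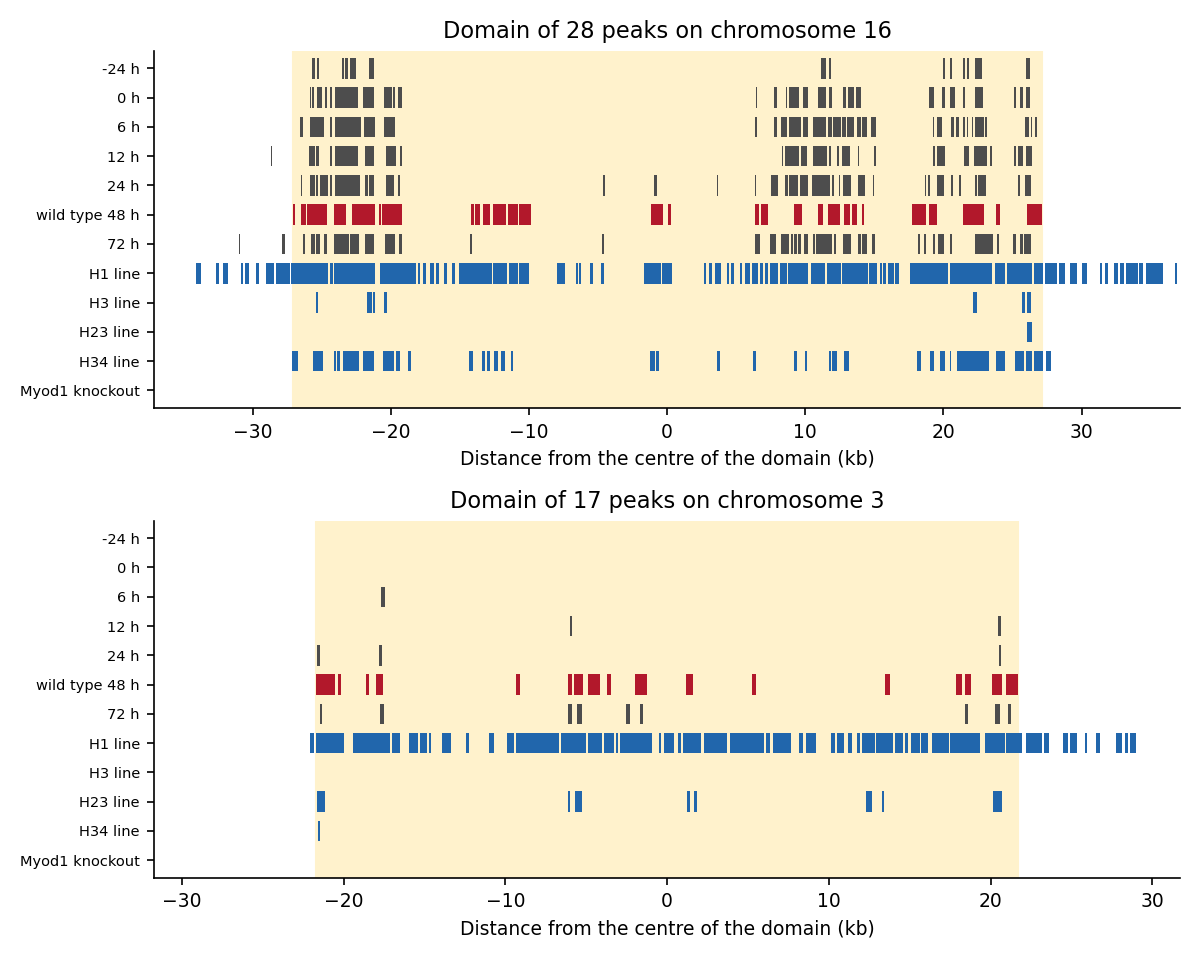
Peaks of the 12 libraries (bars to scale, 1 row per library) over 2 knockout-free domains, against distance in kb from the centre of each; shading marks the domain, red the wild-type peaks at 48 h, blue the edited lines and grey the other times. The Myod1 knockout row is empty in both, and the H1 line covers 68.6% of the upper and 74.4% of the lower domain.

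The next 3 by peak number did not share one pattern. The domain of 20 peaks on chromosome X, at 163203180 to 163246652, had 2 to 5 of them at each of the other times, 19 in H1, 7 in H34, 5 in H3 and 2 in H23. That of 18 peaks on chromosome 3, at 60372822 to 60420047, had 7 at -24 h, 11 at 12 h and 4 at 72 h. It kept most of them in every hotspot line, with 18 in H34, 17 in H1, 13 in H23 and 11 in H3. That of 15 peaks on chromosome 3, at 54981454 to 55031724, went from 4 peaks at -24 h to 10 at 72 h, with 15 in H1, 10 in H3, 8 in H34 and 4 in H23. By span, the longest lay on chromosome 9 at 50252418 to 50309435. Its 14 peaks over 57.0 kb were all found in H1, with 11 in H3, 10 in H23 and 8 in H34. The other of the 5 longest not yet given lay on chromosome 13 at 33165589 to 33216098. It held 11 peaks, of which 5 were found at -24 h and none at 72 h, with 6 in H1, 3 in H34, 4 in H23 and 6 in H3. In each of the other 6 named domains the H1 line held every peak or all but 1.

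Domains at the edge of the rule graded into the knockout-free ones. The 567 domains with 1 knockout peak had a median span of 15.1 kb and a strongest peak of median −log10 p 34.2, and the 660 with 2 had 16.2 kb and 42.3. Domains of 4 peaks, just too few to enter, were knockout-free in 341 of 1621 cases, with a strongest peak of median −log10 p 18.2 against 20.5 in the 184 knockout-free domains of 5 peaks. Peaks of the 567 were found at -24 h in 37.2%, in H1 in 79.2%, in H3 in 64.3% and in H23 and H34 in 71.0%, between the knockout-free domains and those with 2 knockout peaks.

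At every other time of the wild-type series, peaks of knockout-free domains were found less often than those of the other domains. At -24 h, 666 of the 2517 peaks had a peak (26.5%, 24.8 to 28.2), against 53.0% in the other domains and 51.1% of all wild-type peaks. The share was 33.9% at 0 h (61.2% in the others, 58.2% of all), 35.6% at 6 h (62.8%, 59.1%) and 38.0% at 12 h (67.4%, 62.9%). It was 31.3% at 24 h (57.5%, 52.7%) and 29.1% at 72 h (54.7%, 49.2%). The differences from the other domains were all alike, from -29.4 points at 12 h to -25.6 points at 72 h. The ratio of the shares lay between 0.499 at -24 h and 0.567 at 6 h. The share at 72 h, the latest time, lay between those at -24 and 0 h.

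**Figure D3:**
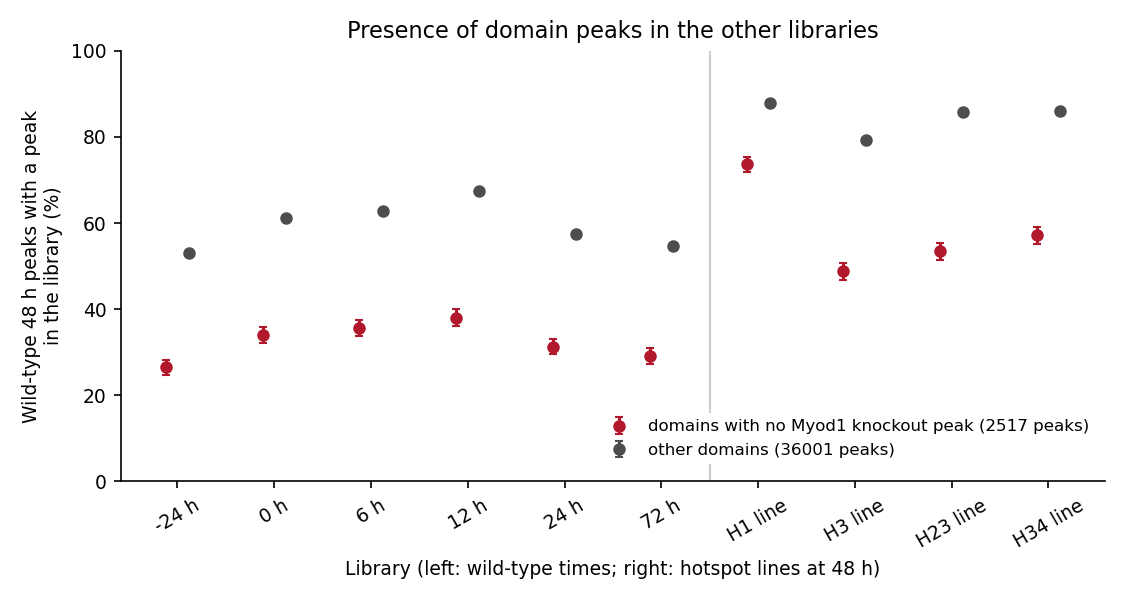
Percentage of wild-type 48 h peaks that overlap a peak of each other library, for knockout-free (red, 2517 peaks) and other (grey, 36001 peaks) domains; bars are 95% Wilson intervals, smaller than the symbol for the other domains. The red points lie below the grey ones in all 10 libraries, least so in the H1 line (73.7% against 87.8%).

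A large part of the knockout-free peaks was seen at 48 h alone. Of the 2517 peaks, 1112 (44.2%, 42.2 to 46.1) had no peak at any of the 6 other times, against 22.0% in the other domains. Of these 1112, 699 were found again in the H1 line. In the other domains 5370 of the 7919 such peaks were, a slightly higher share. Peaks without a counterpart in any time or any hotspot line numbered 190, or 7.55% against 1.99%. At the other end, 290 peaks (11.5%, against 38.9%) were found at all 6 times. The wild-type list at 48 h also had the widest peaks of the time course, with a median of 420 bp against 203 to 280 bp at the other times, and the part of this in the shares was not tested.

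The knockout-free domains fell into kinds by their history before differentiation. No peak was found at -24 or 0 h in 99 of the 391 (25.3%, 21.3 to 29.9), against 74 of the other 3788 (1.95%) and 4.14% of all 4179. Such shares depend on peak number: among domains of 5 peaks they were 29.9% of 184 and 3.82% of 865. Domains with no peak at -24 or 0 h are called late here, for that lack only. Few of their peaks were found at the later times other than 48 h. The 99 late knockout-free domains had 4.47% of their peaks after 6 h, 9.44% after 12 h, 8.44% after 24 h and 14.1% after 72 h. The 74 late domains with knockout peaks had 7.20%, 12.0%, 9.59% and 11.1%. The median −log10 p of the strongest peak was 19.9 and 27.8. The differences had intervals that included 0 at 12, 24 and 72 h, and at 6 h the difference was -2.73 points (-5.57 to -0.0075). In 33 knockout-free domains (8.44%), against 0.607% of the others and 1.34% of all, no peak was found at any other time.

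A second kind was active in myoblasts. In 85 domains (21.7%) at least 50% of the peaks were found at -24 h and again at 0 h. This was a lower share than in the other domains, where it held for 2161 (57.0%). Chosen for those times, both had about equal shares there, at 72.8% and 71.7% at -24 h. Later they parted: the knockout-free ones had 73.3% after 6 h, 71.6% after 12 h, 58.6% after 24 h and 44.2% after 72 h, and the others 78.2%, 81.6%, 70.6% and 66.6%. The difference was -4.85 points (-8.82 to -1.22) at 6 h, -10.0 at 12 h, -12.0 at 24 h and -22.3 points (-26.5 to -18.0) at 72 h. The strongest peak had a median −log10 p of 26.5 in these knockout-free domains and 50.7 in the others, and the part of strength in the lower share at 72 h was not tested. The remaining 207 domains lay between the kinds.

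**Figure D4:**
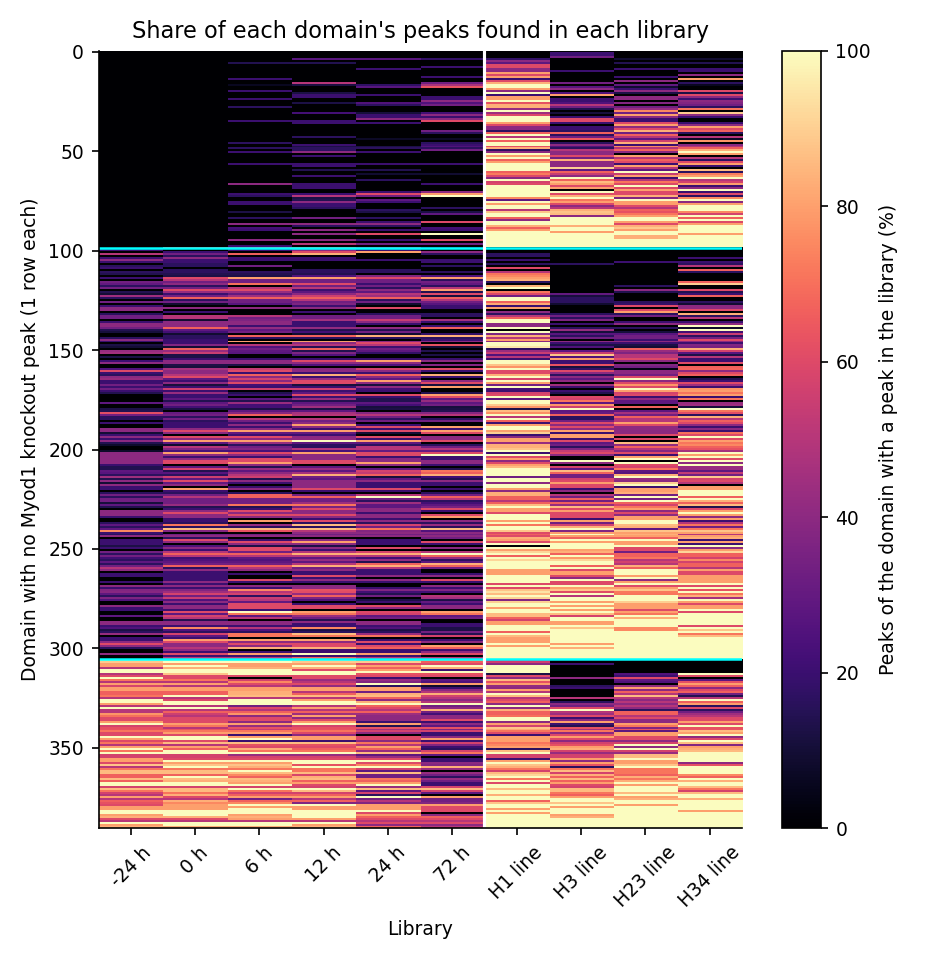
Percentage of each knockout-free domain's peaks (1 row per domain, 391 rows) found in each library (columns; dark 0%, light 100%), with the 99 domains without a peak at -24 and 0 h on top, the 207 between and the 85 held in myoblasts at the bottom, sorted within each by the mean of the hotspot lines. Light rows in the H1 column run through all kinds, while the H3, H23 and H34 columns hold many dark rows.

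In the hotspot lines the knockout-free domains differed between H1 and the lines without H3. In H1, 1855 of 2517 peaks had a peak (73.7%, 71.9 to 75.4), against 87.8% in the other domains and 83.8% of all wild-type peaks. In H3 the share was 48.7% (46.8 to 50.7), against 79.3% and 74%. In H23 it was 53.4% (51.4 to 55.3), against 85.8% and 81.8%, and in H34 57.1% (55.2 to 59.1), against 86.1% and 82%. The difference from the other domains was -14.1 points (-15.9 to -12.4) in H1, -30.6 (-32.5 to -28.6) in H3, -32.4 (-34.4 to -30.5) in H23 and -29.0 (-30.9 to -27.0) in H34. The intervals of the 3 H3-deleted lines lay apart from that of H1. The 4 lists were of different length, from 103134 peaks in H3 to 137960 in H1, and the part of this in the order of the lines was not tested. With the 55585 strongest peaks of every list, which left 172 knockout-free domains among 2994, the differences were -19.7 points in H1, -42.2 in H34, -44.6 in H23 and -36.0 in H3.

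The order of the lines was seen within domains too. H1 held more of a domain's peaks than H3 in 244 of the 391, as many in 87 and fewer in 60. It held more than H23 in 220 and more than H34 in 208. The other domains had more in H1 than in H3 in 43.3%, than in H23 in 30.7% and than in H34 in 31.5%, against 62.4%, 56.3% and 53.2% of the knockout-free ones. Every peak was found in H1 in 136 knockout-free domains (34.8%, against 46.2% of all 4179), and none in H1 in 16 (4.09%, against 0.67%). No peak was found in H3 in 73 domains (18.7%, against 3.37% of all), in H23 in 58 (14.8%, against 1.7%) and in H34 in 48 (12.3%, against 1.6%). These shares depend on peak number. Among domains of 5 peaks, every peak was found in H1 in 39.1% of the knockout-free and 57.5% of the others. No peak was found in H3 in 22.8% and 2.77% of them, in H23 in 16.3% and 0.809%, and in H34 in 14.1% and 0.462%.

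Single peaks with a peak in H1 and in none of the 3 H3-deleted lines made up 15.4% of the knockout-free peaks and 3.68% of the others. Peaks in all 4 lines made up 28.4% and 68.2%, and peaks in no line 10.6% and 2.64%. Peaks in a single H3-deleted line and not in H1 were also more frequent in H34 (4.29% against 1.32%) and H3 (0.993% against 0.297%), and each of the patterns other than full presence had a higher share in knockout-free domains. H1 alone was the most frequent of these and had the highest ratio, 4.19. In 23 knockout-free domains (5.88%, 3.95 to 8.67) no peak was found in any of the 3 lines, against 2 of the 3788 others and 0.598% of all. Among domains of 5 peaks the shares were 7.07% in the knockout-free and 0.231% in the others. Of the 23, the one with most peaks, named after its values were seen, lay on chromosome 14 at 47131525 to 47151293. Of its 9 peaks, 8 were found at -24 h, 6 at 72 h and 5 in H1.

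Complete contrast between H1 and the H3-deleted lines, with every peak in H1 and none in the 3 others, occurred in 6 of the 4179 domains (0.144%), and 5 of them were knockout-free. They were picked out after their values were seen. They lay on chromosomes 6, 9, 14, 18 and 19, with 5 or 6 peaks each. All 5 had peaks in myoblasts. The one on chromosome 9 (119383665 to 119393622) had its 5 peaks at all 6 other times, that on chromosome 6 (67381683 to 67385658) had 5 at -24 h and 1 at 72 h, and that on chromosome 14 (23705760 to 23726141) had 4 or 5 throughout. The lowest, on chromosome 19 (44974145 to 44984642), had 2 of 6 peaks at -24 and 0 h and 3 at 72 h. The domain with 1 knockout peak, on chromosome 5 (64809846 to 64814756), had 5 peaks at 48 h. None of them was found at the times from -24 to 24 h, and 1 was found at 72 h. None of the 5 knockout-free ones was thus among the late domains described above.

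In the late kind, H1 and the H3-deleted lines stood furthest apart. Of the 604 peaks of the 99 late knockout-free domains, 73.5% were found in H1, against 77.1% in the 74 late domains with knockout peaks, a difference of -3.61 points with an interval that included 0 (-8.57 to 1.40). In H3 the share was 45.4% against 69.9%, a difference of -24.6 points (-30.0 to -18.9). In H23 it was 49.0% against 75.6% and in H34 47.2% against 76.0%, differences of -26.6 points (-31.9 to -21.1) and -28.8 points (-34.0 to -23.3). In the 85 domains held in myoblasts the difference was -14.3 points in H1, -20.5 in H34, -25.7 in H23 and -31.1 in H3.

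The differences were also present among peaks of like strength. In the strongest of 4 classes of wild-type −log10 p, 22.9 or more, 93.7% of the 301 knockout-free peaks were found in H1 against 99.6% of the others. The shares there were 73.8% against 97.2% in H3, 73.8% against 98.4% in H23 and 81.7% against 98.8% in H34. They were 51.8% against 86.1% at -24 h and 58.5% against 86.0% at 72 h. Within this class the knockout-free peaks were still weaker, with a median of 31.2 against 38.2. In the weakest class, below 8.63, both groups had a median of 7.11, and the shares were 58.4% against 72.5% in H1, 33.2% against 60.0% in H3, 42.2% against 71.0% in H23 and 45.3% against 70.7% in H34. At -24 h they were 17.4% against 25.9%. At -24 h the difference was -8.47 points in the weakest class and -34.3 in the strongest, and in H3 it lay between -26.9 and -23.5 points in all 4. In H1 it was -14.1 and -5.89 points, but with the other domains at 99.6% in the strongest class no trend can be read from it.

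**Figure D5:**
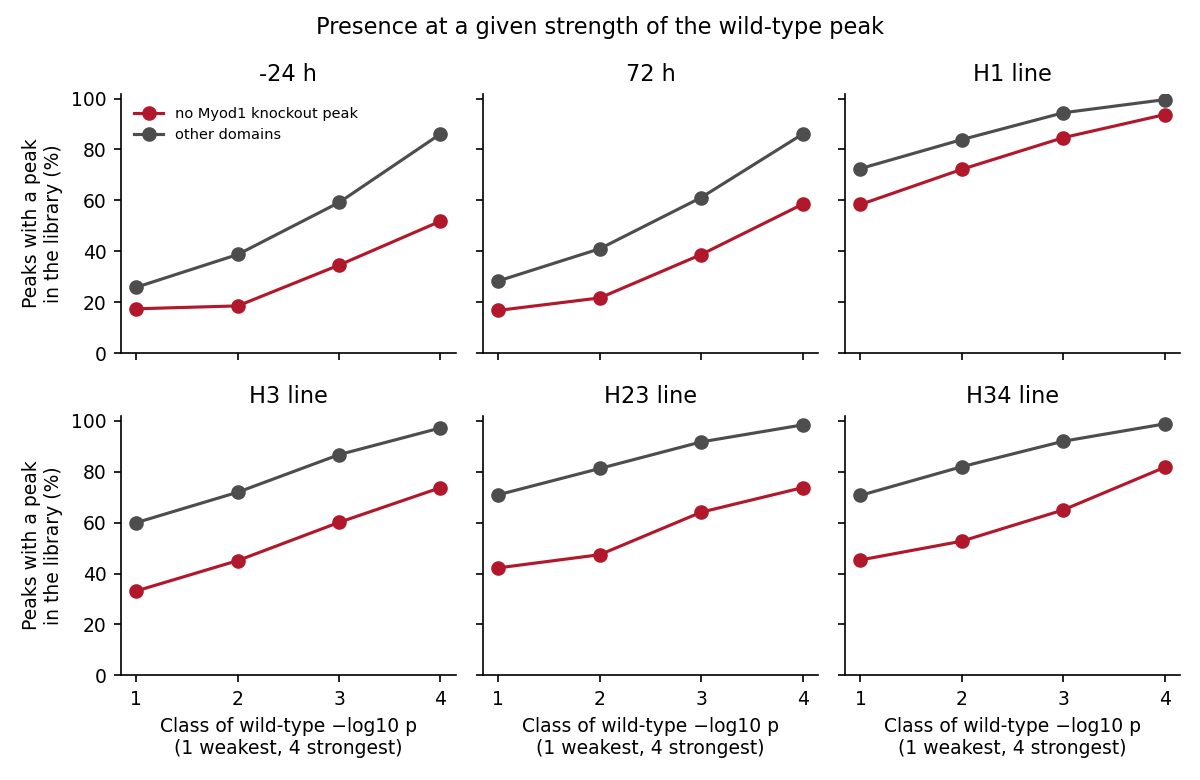
Percentage of wild-type peaks found in 6 libraries by class of their −log10 p (quartiles over all domain peaks), for knockout-free (red) and other (grey) domains. The red lines lie below the grey ones in every class; in the H1 line they run from 58.4% against 72.5% to 93.7% against 99.6%, where the other domains are near the upper limit.

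The strongest peak of each knockout-free domain, taken alone, was found in H1 in 88.0% of cases, H34 in 75.7%, H23 in 73.9% and H3 in 68.3%. In the other domains these shares were 96.1% to 99.0%.

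Peaks that were found again also ranked lower in the other libraries' own lists. In the H1 list the median percentile of the overlapping peak was 69.2 for knockout-free domains and 81.5 for the others. In the wild-type list itself, over all their peaks, the medians were 39.1 and 50.2. Lists differ in length and the peaks not found again have no rank, so percentiles were compared only between the domain groups within a list. In H3 the medians were 59.6 and 79.1, with 63.8 and 84.3 for H23 and 61.9 and 81.5 for H34. At 72 h they were 44.9 and 69.5, and at -24 h 52.4 and 71.1. Peaks of the H1 line covered 25.1% of the 6107 kb of knockout-free domains, more than the 20.4% of the wild-type library, while H34 covered 16.1%, H23 15.7% and H3 13.7%. In the other domains H1 covered 36.0%, H3 31.5%, H23 38.7% and H34 36.0%, against 27.3% in the wild-type library. In the knockout-free domains the 3 H3-deleted lines thus covered less than the wild-type library, and in the other domains more. The hotspot lists reached down to a −log10 p of 3.01 to 3.03, against 4.13 in the wild-type list at 48 h. As whole lists they covered 58.4 Mb (H3) to 81.5 Mb (H23), against 45.4 Mb. The part of this in the covered shares was not tested.

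Domains chosen by absence from another list had lower shares elsewhere too. The 321 domains with no peak at -24 h (7.68% of all), of which 151 were knockout-free, differed from the rest by -11.0 points in H1. In H3 they differed by -17.4, in H23 by -17.9 and in H34 by -21.2 points. The 293 with no peak at 72 h (7.01% of all), of which 112 were knockout-free, differed by -16.8, -18.3, -11.9 and -14.5 points in the same order. The knockout-free domains, at -14.1, -30.6, -32.4 and -29.0 points in that order, lay between these sets in H1 and below both in the 3 H3-deleted lines. The 141 domains with no peak in H3, of which 73 were knockout-free, differed by -28.1 points in H1, -49.0 in H23 and -44.7 in H34. The sets share domains, so the differences between them were not tested.

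Wild-type peaks in the flanks of these domains also had a lower share with a knockout peak than those around the other domains. Within the domains the rule left few knockout peaks by construction: in 352 of the 391 no knockout peak lay anywhere in the span, and in 39 (9.97%) a knockout peak lay between the wild-type peaks. The nearest knockout peak outside the domain was a median of 33.6 kb away (quartiles 19.6 and 70.6 kb), against 19.6 kb (8.11 and 35.1 kb) in the other domains, and over 100 kb away in 64 (16.4%) against 5.36%. Wild-type peaks within 100 kb on either side, leaving out those of knockout-free domains, had a knockout peak in 32.8% of 3936 cases (31.4 to 34.3), against 45.9% of 35844 (45.4 to 46.4) around the other domains and 42.5% of all wild-type peaks. These flanking peaks had a smaller deficit in the hotspot lines, with 83.1% against 86.6% in H1, 67.9% against 78.1% in H3, 73.8% against 85.0% in H23 and 76.8% against 85.0% in H34. In the hotspot lines the flanks thus showed the deficit of the domains in weaker form. The knockout shares and distances around the domains rest on the same knockout list as the rule. Shares of that list also differed between chromosomes, as given below, and the part of this in the flanks was not tested. The knockout values of the flanks are therefore a description only.

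Knockout-free domains tended to follow one another. The next domain of 5 or more peaks along the chromosome was knockout-free in 60 of 390 cases (15.4%, 12.1 to 19.3), against 8.78% (7.92 to 9.73) after another domain. When the next domain lay within 100 kb the shares were 20.1% (14.3 to 27.6) and 7.38% (6.21 to 8.75). The knockout-free share also differed between whole chromosomes, from 3.05% on chromosome 19 to 15.5% on chromosome 10. The part of this in the shares of next domains was not tested. Long stretches were few, however. With gaps of at most 100 kb there were 24 stretches of 2 or more, holding 52 domains (13.3%), of which 20 had 2 domains and 4 had 3, and none had more. With gaps of at most 50 kb there were 14 stretches. The 24 spanned 36.5 to 146.6 kb, with a median of 95.2 kb, and 13 of the 24 held no knockout peak at all, in the gaps included. Of the 27 wild-type peaks between their domains, 4 had a knockout peak.

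The stretches of 3 domains lay on chromosomes 10, 3 and 12. The longest of them, on chromosome 10 at 111250195 to 111386625, held 16 domain peaks over 136.4 kb, with no knockout peak. Of the 16, 12 were found in H1, 8 in H34, 7 in H3, 7 in H23 and 1 to 4 at each other time. That on chromosome 3, at 37852230 to 37976675, held 16 over 124.4 kb, also with no knockout peak, and 10 of them were found in H1, 3 in H23, 3 in H34 and 1 in H3. On chromosome 12, at 92161590 to 92279398, 22 peaks were found in 13 cases in H3, 13 in H23, 11 in H1 and 5 in H34, so H1 did not lead there. None of these 22 was found at -24 h. The other stretch on chromosome 10, at 23244955 to 23340490, held 20 peaks, with 11 at 0 h, 4 at 72 h, 16 in H1, 3 in H23, 3 in H34 and none in H3. The longest stretch of any, of 2 domains on chromosome 3 at 60372822 to 60519388, held 23 peaks, with 21 in H34, 17 in H1, 16 in H23 and 11 in H3. The lines thus ranked differently from stretch to stretch. Over all stretches H1 held 75.1% of the 337 peaks, H34 55.8%, H23 48.4% and H3 45.4%, against 73.5%, 57.3%, 54.2% and 49.3% in the other 339 knockout-free domains.

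The knockout-free share of domains differed between chromosomes. It was highest on chromosome 10, at 38 of 245 (15.5%, 11.5 to 20.6), chromosome 13, at 28 of 181 (15.5%), and chromosome 3, at 38 of 247 (15.4%). It was lowest on chromosome 19, at 4 of 131 (3.05%, 1.19 to 7.59), chromosome 4, at 10 of 238 (4.20%), and chromosome 5, at 10 of 234 (4.27%). Single wild-type peaks, in domains or not, had a knockout peak in 31.6% of cases on chromosome 10, 34.2% on 13 and 33.3% on 3, and in 48.6% on 19, 51.1% on 4 and 50.2% on 5. These shares include the peaks of the domains themselves and rest on the same knockout list as the rule, so they are a description only.

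Which domains were chosen depended on the library that defined them. With domains made from the 72 h list, 367 of 4027 (9.11%) were knockout-free, a similar share, but 88 of these met a knockout-free domain of the 48 h list, or 24.0% of the former and 22.5% of the latter. Their differences were -29.0 points in H1, -42.2 in H34, -47.3 in H23 and -43.7 in H3, and -24.6 at -24 h, so H1 again had the smallest deficit of the 4 lines. With the 55585 strongest peaks of each list, which leaves the knockout list whole, 158 of the 391 domains met a knockout-free domain. With domains of 10 or more peaks the difference in H1 was -5.88 points.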

How the data were processed

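ChIP-seq peak lists of 12 libraries were used. The submitters' processing notes name MACS2 2.1.0 and mm9. How reads were aligned, filtered and set against a control, and the cutoffs, are not given in the sources used here. The depth of the libraries is unknown. The deposited lists of the 6 other times hold 1 score per peak with no stated unit. The lists at 48 h, as deposited by the authors, hold a score (the −log10 p times 10), fold enrichment (a ratio), −log10 p, −log10 q and the summit. These values ranked or filtered peaks within a list only.

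Domains, presence (1 base of overlap), 95% Wilson intervals and intervals of differences of shares (Newcombe) were computed in Python 3.11.15 with numpy 2.4.6, pandas 2.3.3 and matplotlib 3.10.9. Stretches are knockout-free domains in a row with gaps of at most 100 kb. Named regions are the 5 with most peaks, the 5 longest and the 5 stretches of most domains, chromosome 18 left out. The code was tested on simulated data. The domains and measures were chosen with earlier results of these data known. No mm9 genome or annotation was used here. Alternatives are given in the closing section.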

Additional observations from a re-analysis of the deposited data

How the results depend on the processing

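No paired analysis was possible because each condition has 1 library and the labels give no replicate numbers. Over 16 results and 151 alternatives, all 109 differences of shares (knockout-free minus other domains, in points) were negative, and 79 values moved. A value moved when it lay beyond the interval of the main result. Counts of domains and stretches have no interval and moved when they changed by more than a set factor. The use of the 72 h list was chosen after seeing the data. The cause of each shift was not tested, apart from fewer domains where the settings admit fewer. With 50% overlap of the shorter peak, the -24 h difference was -24.6. With peaks joined within 5 kb, 10.4% of domains were knockout-free, their median span was 7.30 kb, and the differences were -29.8 at 0 h and -28.4 in H3. With stricter lists, 10.6% were knockout-free, and the times in order had -24.5, -25.0, -24.8, -26.5, -24.0 and -23.5. With the same number of strongest peaks in every list there were 172 (5.74%), the next domain was knockout-free for 9.94%, and the times had -31.0, -33.8, -31.5, -33.3, -31.5 and -28.8, with -19.7 in H1, -42.2 in H34, -44.6 in H23 and -36.0 in H3. With domains of 10 or more peaks there were 32 (2.50%), with a median span of 31.5 kb and 11.5 peaks, and the next domain was knockout-free for 6.45%. Their differences were -29.7, -32.0, -31.8, -33.9, -29.1 and -21.2 over the times, and -5.88 in H1, -39.1 in H34, -46.9 in H23 and -33.3 in H3. With domains of the 72 h list the median span was 11.0 kb, and the differences were -24.6, -19.7, -18.0, -15.5 and -13.9 from -24 to 24 h, and -29.0 in H1, -42.2 in H34, -47.3 in H23 and -43.7 in H3. Gaps of at most 50 kb gave 14 stretches. Taking medians over domains gave -35.6, -34.3, -33.3, -31.4, -32.7 and -37.1 over the times, -35.7 in H3 and -34.9 in H23. Within classes of −log10 p the values were -19.3, -20.7, -20.5, -23.5, -19.0 and -18.7 over the times, and -11.3 in H1, -26.0 in H34, -29.4 in H23 and -26.4 in H3. Within classes of peak width they were -20.2, -21.3, -21.1, -23.9, -19.5 and -19.1, and -11.4 in H1, -26.2 in H34, -29.7 in H23 and -26.9 in H3. Depth is unknown, so an absent peak may lie below a list's cutoff.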
